A study of Mus musculus with 8 samples.

Results

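The Gadd45 genes and a core set of p53 response genes were followed in visual cortex of adult mice after an intracortical injection that blocked miR-29a. The set holds 10 genes chosen by symbol: Gadd45a, Gadd45b and Gadd45g, the p53 gene Trp53, and Cdkn1a, Mdm2, Ccng1, Sesn1, Sesn2 and Btg2, which p53 can activate. All 10 were present once each among 24883 gene rows. The anti-miR-29a group of 4 libraries received an LNA oligonucleotide (locked nucleic acid, a short oligonucleotide with chemically constrained sugars that binds a microRNA tightly) complementary to miR-29a. The scrambled group of 4 libraries received an LNA oligonucleotide of scrambled sequence. Both groups were C57BL/6J mice injected on postnatal day 122, with cortex taken on postnatal day 129, 7 days later, so injection into the tissue is common to both. Whether each library is a different animal is not stated in the labels. The p-values therefore refer to library-to-library spread, part of which may be technical.

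The transcription factor p53 is kept scarce by Mdm2, a ubiquitin ligase that marks it for degradation, and is stabilised by DNA damage and other stresses. It then switches on genes that halt division, repair DNA, limit oxidative and nutrient stress or kill the cell. The Gadd45 proteins are small stress sensors that bind PCNA, cyclin-dependent kinase 1 and stress kinase cascades, and they have been linked to active DNA demethylation. In neurons Gadd45b, Gadd45g and Btg2 are also switched on rapidly by electrical activity, and Gadd45a and Sesn2 also respond to the integrated stress response, so these genes do not report on p53 alone. MicroRNAs repress mRNAs that pair with their seed, bases 2 to 8, and miR-29 has been reported to act upstream of p53 by repressing Cdc42, Pik3r1 and, in mouse, Ppm1d.

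The 3 mature miR-29 sequences are given first because they define the sites searched in the transcripts. They come from RefSeq (GRCm38.p6, the assembly also called mm10), with the seed in capitals. The seed is the same in all 3, and the miRNAs differ only downstream of it.
miR-29a-3p: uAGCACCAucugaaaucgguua
miR-29b-3p: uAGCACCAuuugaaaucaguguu
miR-29c-3p: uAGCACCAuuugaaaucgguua
A match to TGGTGCT, the complement of the seed, was present in the longest annotated 3' UTR of 2 of the 10 genes, Cdkn1a and Btg2, with 1 match each, against 13.1% of 21010 genes with an annotated 3' UTR. The 3' UTRs of Gadd45a, Gadd45b and Gadd45g, of 563, 558 and 489 nt, held none. The sites below are written as DNA in the sense of the transcript, with the match in capitals, and the last 3 belong to the reported targets upstream of p53, each of which held 1 match. None of the 5 was followed by the A that makes an 8-base site.
Cdkn1a, chr17:29100694-29100700, plus strand: cgaccccaaagcTGGTGCTcaataaatac
Btg2, chr1:134076097-134076103, minus strand: gctttagctcctTGGTGCTcagagcacct
Ppm1d, chr11:85346971-85346977, plus strand: ttcaataacaaaTGGTGCTgctaacaccc
Cdc42, chr4:137320520-137320526, minus strand: cgtgtccccaccTGGTGCTcttaggaagg
Pik3r1, chr13:101684503-101684509, minus strand: ggcctttaaccaTGGTGCTtgttaacgct
The Cdkn1a match began at base 1301 of a 3' UTR of 1334 nt, next to its end, and the Btg2 match at base 1266 of 2199 nt.

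Expression was given as FPKM, fragments scaled to transcript length and library size, so levels can be set against each other between genes. Read counts were not used here, so the depth behind a value is unknown. Between 12538 and 12769 gene rows reached 1 FPKM per library. Pairs of libraries within a group had correlations across genes of 0.932 to 0.963, and pairs from different groups 0.931 to 0.957. The labelled tissue was checked on cortical neuron markers, of which Slc17a7, the glutamate transporter of cortical excitatory neurons, read 607.2 ± 26.4 FPKM in anti-miR-29a and 606.6 ± 18.0 FPKM in scrambled libraries, and Tbr1, a deep-layer transcription factor, 42.0 ± 3.86 and 43.4 ± 3.38 FPKM (SD, n = 4 each). Of the 7 neuron markers 6 had lower means in anti-miR-29a libraries (median log2 difference -0.047), 2 of them without overlap: Neurod6, a factor of excitatory neurons, at 19.8 ± 1.65 FPKM in anti-miR-29a and 23.5 ± 1.07 FPKM in scrambled libraries (limma, adjusted p = 0.273), and Gad1, the GABA-synthesising enzyme, at 60.3 ± 1.31 and 63.5 ± 2.53 FPKM (limma, adjusted p = 0.609). Of all 13912 tested rows, 2.29% were lower without overlap and 56.6% had differences above 0, and the median difference was 0.026. The summed level of the 7 neuron markers, most of which is Snap25 and Slc17a7, was 2334 to 2664 FPKM in anti-miR-29a and 2454 to 2583 FPKM in scrambled libraries. The 6 markers of dividing cells, Mki67 and Top2a among them, had low values, at a summed 0.872 to 2.28 FPKM in anti-miR-29a and 0.781 to 1.87 FPKM in scrambled libraries.

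Over all 8 libraries the mean levels formed 2 tiers. Btg2 was highest at 19.8 FPKM, followed by Ccng1 at 18.3, Sesn1 at 16.98, Cdkn1a at 13.6, Gadd45g at 13.2, Mdm2 at 12.9, Trp53 at 12.6 and Gadd45b at 11.4 FPKM. Sesn2 at 4.24 FPKM and Gadd45a at 3.96 FPKM lay well below. From Btg2 down to Gadd45b the ranges of neighbours in this order overlapped, as did those of Sesn2 and Gadd45a, whereas no library had Sesn2 as high as Gadd45b was in any library.

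When anti-miR-29a was compared with scrambled, 6 of the 10 genes (Gadd45a, Gadd45b, Gadd45g, Cdkn1a, Btg2 and Sesn2) had higher means in anti-miR-29a libraries, by 0.38 to 0.71 on the log2 scale, and the other 4 lay within 0.09 of no difference. No gene of the set passed the test across all genes. By limma on log2(FPKM + 0.1), with Benjamini-Hochberg adjustment over 13912 tested rows and a threshold of 0.05, 0 of 10 were called, where 0.0144% of all tested rows were, 0.00719% in the higher direction. At an unadjusted p under 0.05 limma counted 5 of 10 higher and 0 lower, against 7.54% and 3.18% of all tested rows (1049 and 443). The split of all rows depended on scaling, with 713 higher and 797 lower after quantile normalization and 748 and 731 after median centring, and with 583 and 539 of 13758 rows after a fitted dependence on transcript length and GC content was taken out of each library. The same 5 genes of the set were counted under both scalings, but Gadd45g was not counted after the length and GC step (unadjusted p = 0.0832) or in 5 of 8 fits with 1 library left out. The 4 libraries of one group all lay above the 4 of the other in 4 of 10 genes, each time with anti-miR-29a higher, against 4.02% of all tested rows in that direction and 2.29% in the other. Differences were above 0 in 8 of 10 genes, against 56.6% of all tested rows. The median difference of the 10 genes was 0.43, and that of all tested rows was 0.026. RNA came from bulk tissue, in which fewer cells of a type and less RNA per cell cannot be told apart.

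**Figure D1:**
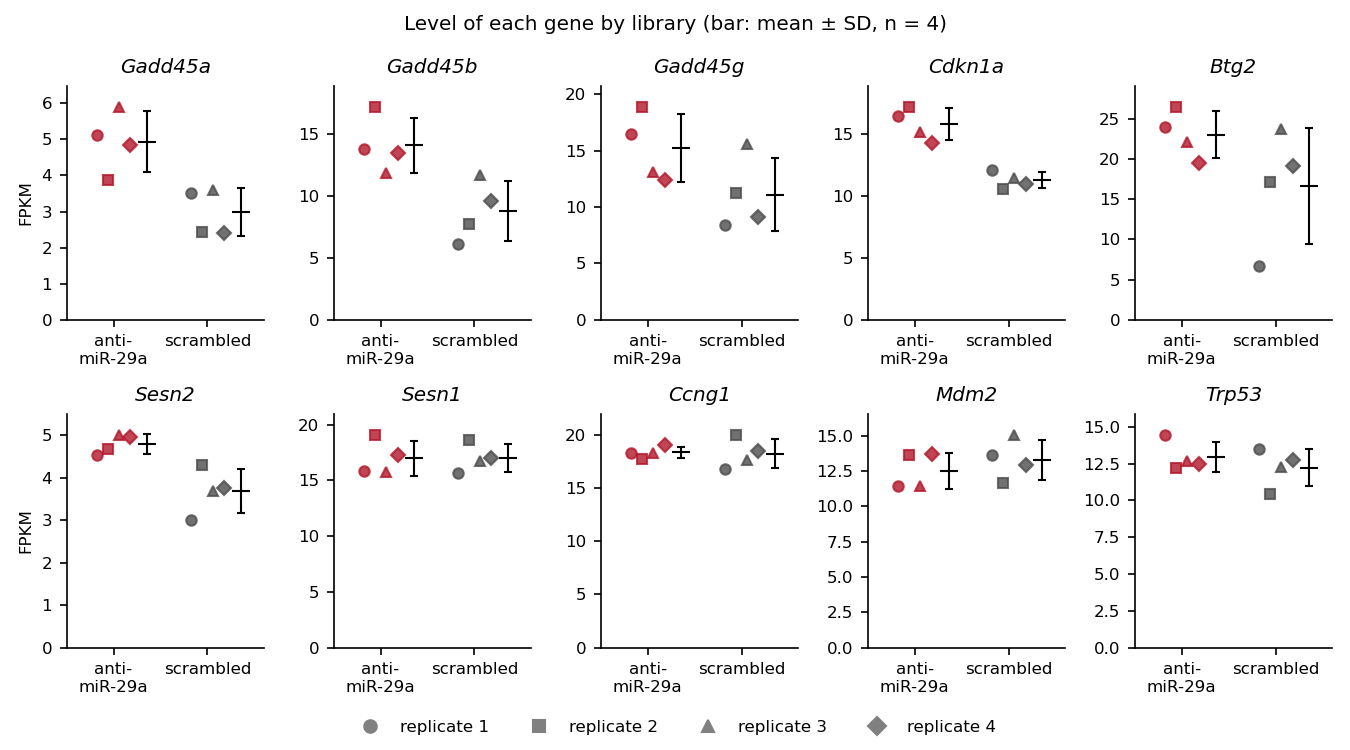
FPKM of each of the 10 genes in the 4 anti-miR-29a libraries (red) and the 4 scrambled libraries (grey); marker shapes give the replicate number and the black bar the mean ± SD (n = 4). Gadd45a, Gadd45b, Cdkn1a and Sesn2 have no overlap between groups, while the groups overlap for Gadd45g, Btg2, Sesn1, Ccng1, Mdm2 and Trp53.

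Cdkn1a encodes p21, the inhibitor of cyclin-dependent kinases that carries out much of p53-dependent arrest. It read 16.5, 17.2, 15.2 and 14.3 FPKM in anti-miR-29a libraries, against 12.1, 10.6, 11.5 and 10.99 FPKM in scrambled libraries. The groups stood clearly apart, with replicate 4 the lowest of the anti-miR-29a libraries and replicate 1 the highest of the scrambled ones. The log2 difference was 0.48 with a standard error of 0.079, a 1.39-fold higher level (95% interval 1.23 to 1.58), and Cdkn1a had the smallest p of the set, rank 16 of 13912. It missed the threshold after adjustment (limma, adjusted p = 0.106; exact two-sided permutation p = 0.0286, the lowest value possible with 70 relabellings). Its adjusted p was 0.0742 to 0.315 over 18 alternative settings, with a log2 difference of 0.39 to 0.53. The gene lies on chromosome 17 at 29090976 to 29100727 (mm10, GENCODE M21, plus strand). It shares 273 exon bases with AC167363.2, a provisional annotation on the opposite strand, and the library kit does not mark strand, so reads over those bases cannot be assigned to one of them.

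The 3 Gadd45 genes had higher means together, with differing firmness. Gadd45a, the member induced by DNA damage through p53, read 5.13, 3.87, 5.89 and 4.85 FPKM in anti-miR-29a libraries, against 3.51, 2.43, 3.60 and 2.42 FPKM in scrambled libraries. The groups did not overlap, although anti-miR-29a replicate 2 came close to scrambled replicates 1 and 3. The log2 difference was 0.71 with a standard error of 0.18, or 1.64-fold (95% interval 1.25 to 2.16; limma, adjusted p = 0.234; exact permutation p = 0.0286). Gadd45a lies on chromosome 6 at 67035096 to 67037457, minus strand, and shares 337 exon bases with E230016M11Rik on the opposite strand. That gene, annotated as a processed transcript, read 1.03 ± 0.469 FPKM in anti-miR-29a and 1.36 ± 0.435 FPKM in scrambled libraries. Reads over the shared bases cannot be assigned to one of them without strand, so the levels are not separate measures. The part of E230016M11Rik in the Gadd45a difference was not tested.

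Gadd45b, the activity-induced member that links neuronal firing to DNA demethylation in the adult mouse brain, read 13.8, 17.1, 11.9 and 13.4 FPKM in anti-miR-29a libraries. In scrambled libraries it read 6.12, 7.72, 11.6 and 9.61 FPKM. The groups did not overlap, but anti-miR-29a replicate 3 and scrambled replicate 3 nearly met. The log2 difference was 0.70 with a standard error of 0.19, or 1.62-fold (95% interval 1.22 to 2.16; limma, adjusted p = 0.239; exact permutation p = 0.0286). Gadd45b is on chromosome 10 at 80930073 to 80932204, plus strand.

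Gadd45g, a growth-arrest member that is likewise induced by activity, read 16.5, 18.8, 13.1 and 12.4 FPKM in anti-miR-29a libraries, against 8.36, 11.3, 15.6 and 9.13 FPKM in scrambled libraries. Here the groups overlapped, since scrambled replicate 3 exceeded anti-miR-29a replicates 3 and 4. The log2 difference was 0.48 (SE 0.20; limma, adjusted p = 0.42; exact permutation p = 0.114), and without scrambled replicate 3 it was 0.65 and the groups did not overlap. Gadd45g is on chromosome 13 at 51846678 to 51848468, plus strand. All 3 Gadd45 genes have short transcripts, the longest of 1223, 1284 and 1071 nt, and the 2226 tested rows with a longest transcript of at least 1000 and under 2000 nt had a median difference of 0.090, against -0.060 for the 2008 rows of 6000 nt and over. After the same length and GC step, the differences were 0.60 for Gadd45a, 0.58 for Gadd45b and 0.35 for Gadd45g, and of the 10 genes Cdkn1a was the 1 whose groups still did not overlap. Under that setting 342 of 13758 rows were higher without overlap, against 559 of 13912 before it.

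Btg2, an anti-proliferative p53 target and immediate-early gene that recruits deadenylases to mRNA, read 23.9, 26.4, 22.1 and 19.5 FPKM in anti-miR-29a libraries, against 6.65, 17.1, 23.7 and 19.1 FPKM in scrambled libraries. The groups overlapped, and scrambled replicate 1 stood far below the other 7 libraries. The log2 difference was 0.60 with a standard error of 0.32 and a 95% interval of -0.12 to 1.32 (limma, adjusted p = 0.533; exact permutation p = 0.114). It was 0.21 without scrambled replicate 1 (limma, adjusted p = 0.611, within 0.396 to 0.699 over the alternatives), so 1 library decided most of it. Without scrambled replicate 3 it was 0.81 and the groups did not overlap. Btg2 lies on chromosome 1 at 134075170 to 134079120, minus strand.

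The sestrins are stress proteins that restrain the growth kinase mTORC1 through the GATOR complexes when leucine is scarce. Sesn2, the member under both p53 and the integrated stress response, read 4.52, 4.67, 5.002 and 4.95 FPKM in anti-miR-29a libraries, against 3.00, 4.29, 3.69 and 3.75 FPKM in scrambled libraries. The anti-miR-29a libraries lay close together and all above the scrambled ones. The log2 difference was 0.38 with a standard error of 0.12, or 1.30-fold (95% interval 1.08 to 1.57; limma, adjusted p = 0.313; exact permutation p = 0.0286). Sesn1 did not follow, at 15.8, 19.1, 15.7 and 17.2 FPKM in anti-miR-29a and 15.7, 18.7, 16.8 and 16.96 FPKM in scrambled libraries. Its log2 difference was -0.0064 (95% interval -0.19 to 0.18; limma, adjusted p = 0.985; exact permutation p = 1). Sesn2 lies on chromosome 4 at 132492032 to 132510501, minus strand, and Sesn1 on chromosome 10 at 41809935 to 41908424, plus strand.

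Trp53, Mdm2 and Ccng1 showed little difference. Trp53 itself read 14.5, 12.2, 12.7 and 12.5 FPKM in anti-miR-29a and 13.5, 10.5, 12.3 and 12.7 FPKM in scrambled libraries, and the groups overlapped. Its log2 difference was 0.086 (95% interval -0.12 to 0.29; limma, adjusted p = 0.779; exact permutation p = 0.486), and p53 protein, through which the pathway is mostly controlled, was not measured. Mdm2, both the ligase for p53 and one of its most direct targets, read 11.5, 13.6, 11.4 and 13.7 FPKM in anti-miR-29a and 13.6, 11.7, 15.1 and 13.0 FPKM in scrambled libraries. The mean was lower in anti-miR-29a libraries, by a log2 difference of -0.085 (95% interval -0.31 to 0.14; limma, adjusted p = 0.793; exact permutation p = 0.486). Ccng1, the cyclin G1 gene and another direct target, read 18.3, 17.8, 18.4 and 19.1 FPKM in anti-miR-29a and 16.8, 20.02, 17.6 and 18.5 FPKM in scrambled libraries. It was among the steadiest of the set, with a log2 difference of 0.014 (95% interval -0.14 to 0.16; limma, adjusted p = 0.956; exact permutation p = 0.857). The 95% intervals of Trp53, Mdm2, Ccng1 and Sesn1 all ended below the 0.38 estimated for Sesn2. Differences between genes were not tested. Trp53 and Ccng1 lie on chromosome 11 at 69580359 to 69591873, plus strand, and at 40748552 to 40755311, minus strand, and Mdm2 on chromosome 10 at 117688875 to 117710758, minus strand.

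**Figure D2:**
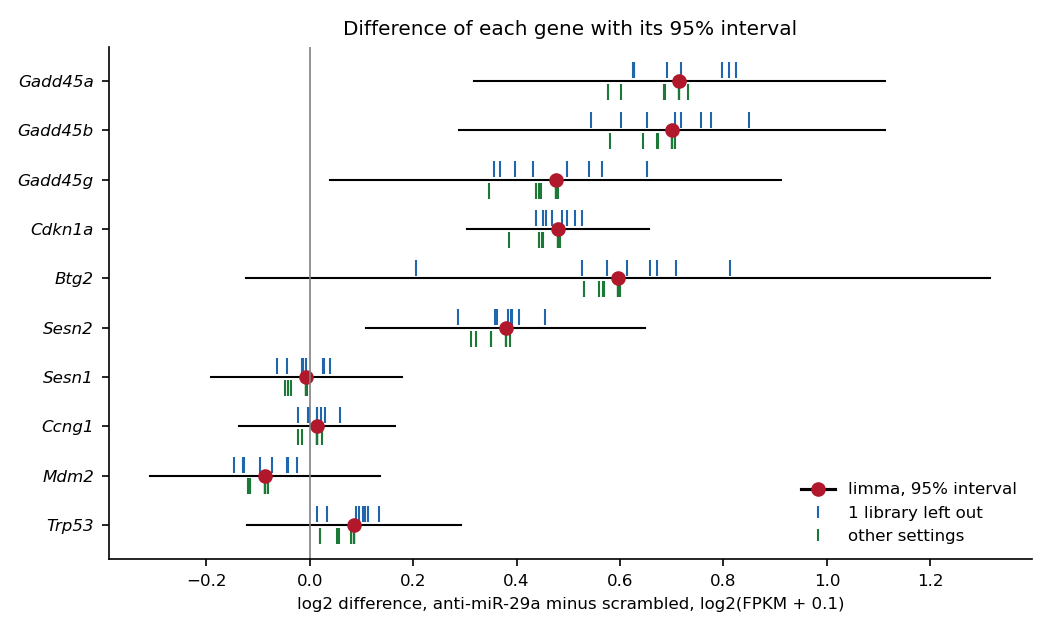
Log2 difference (anti-miR-29a minus scrambled) of each gene by limma (red points) with its 95% interval (black line); blue ticks give the estimate with 1 library left out and green ticks under the other settings. Gadd45a, Gadd45b, Gadd45g, Cdkn1a and Sesn2 have intervals above 0, Btg2 has a wide one, and the lower 4 genes are centred near 0.

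The genes did not move alike across libraries. Scrambled replicate 1 was the lowest of the 8 libraries for 6 of the 10 genes (Gadd45b, Gadd45g, Btg2, Sesn2, Sesn1 and Ccng1), and anti-miR-29a replicate 2 the highest for 5 (Gadd45b, Gadd45g, Cdkn1a, Btg2 and Sesn1). Relative to the scrambled mean, scrambled replicate 1 stood at -1.17 for Btg2, -0.47 for Gadd45b and -0.36 for Gadd45g on the log2 scale, but at 0.25 for Gadd45a and 0.10 for Cdkn1a. Gadd45a and Gadd45b therefore had nearly equal group differences but different orders of libraries: Gadd45a was highest in anti-miR-29a replicate 3, at 0.98, and Gadd45b in replicate 2, at 1.00. Genes most like each Gadd45 profile were found by the root mean square distance between mean-centred log2 profiles over the 8 libraries, among 12714 other rows with a mean of at least 1 FPKM. Nearest to Gadd45a was Nfkbiz, an inducible IkB-type regulator, at a distance of 0.12, with Dpm3 and Kcnmb4os1 next at 0.15 and 0.16. Nearest to Gadd45b were Trib1, a pseudokinase gene, at 0.14, C030037D09Rik at 0.16 and Arl4d at 0.17. Nearest to Gadd45g were Ccdc73 at 0.16, Hist3h2ba at 0.17 and Sertad1 at 0.17. The median distance of all rows was 0.46, 0.46 and 0.40 for Gadd45a, Gadd45b and Gadd45g.

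**Figure D3:**
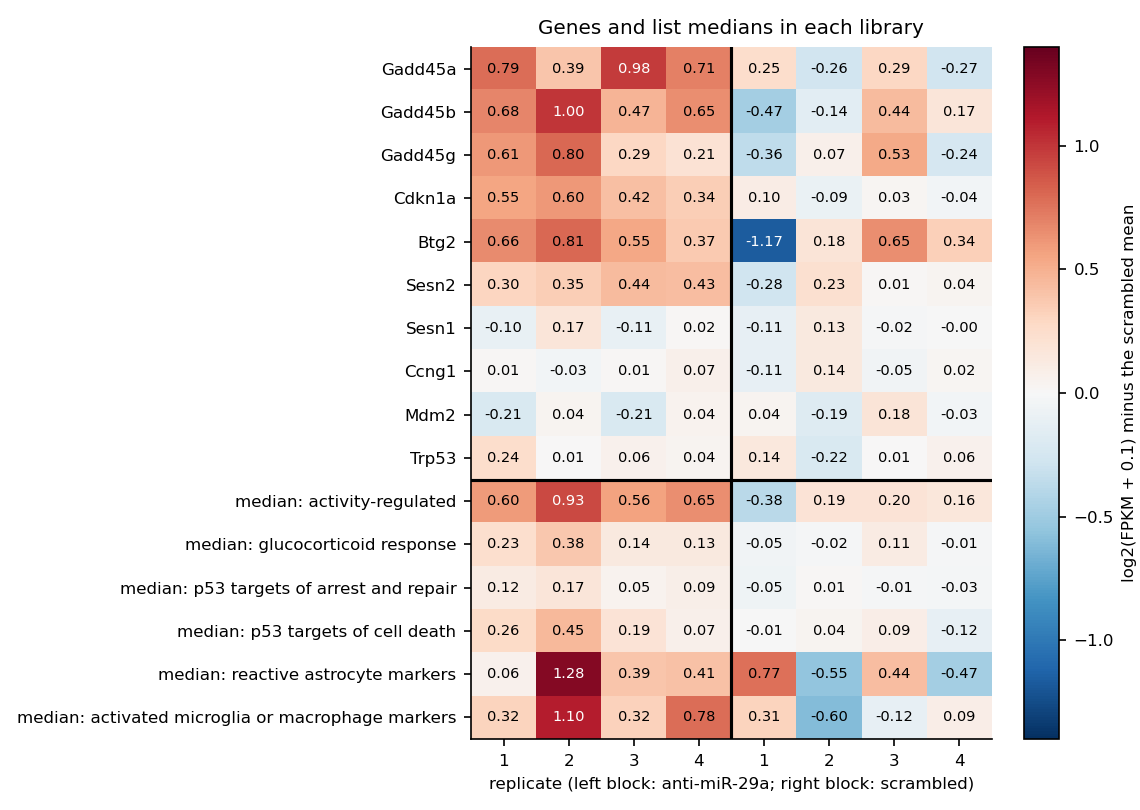
Log2(FPKM + 0.1) minus the mean of the scrambled libraries for each of the 10 genes (upper rows) and the median of the same quantity over 6 gene lists (lower rows), with anti-miR-29a libraries left and scrambled libraries right. Scrambled replicate 1 is low for Btg2 (-1.17), Gadd45b (-0.47) and the activity-regulated list (-0.38) and high for reactive astrocyte markers (0.77).

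Markers of cell states that follow an injection differed between libraries too. All 6 reactive astrocyte markers had higher means in anti-miR-29a libraries, with a median log2 difference of 0.60, 2 of 6 at an unadjusted p under 0.05 by limma and 0 without overlap. Of all tested rows 7.54% were higher at an unadjusted p under 0.05 and 4.02% were higher without overlap. The 6 markers summed to 223.4 to 515.8 FPKM in anti-miR-29a and 148.0 to 340.3 FPKM in scrambled libraries, and no marker was listed at 0. Anti-miR-29a replicate 2, highest for 5 of the 10 genes, was also highest for this sum, whereas scrambled replicate 1 had the highest sum of the scrambled libraries and the lowest Gadd45b, Gadd45g, Btg2 and Sesn2. The 6 markers of activated microglia or macrophages summed to 36.5 to 66.9 FPKM in anti-miR-29a and 26.5 to 41.9 FPKM in scrambled libraries, and their sums overlapped. Of 5 tested, all 5 had higher means in anti-miR-29a libraries, with a median log2 difference of 0.48, beside 0.43 for the 10 genes described. By limma 3 of these 5 (60%) had an unadjusted p under 0.05, and 2 (40%) did not overlap, beside 50% and 40% of the 10 genes. Of all tested rows the shares in the higher direction were 7.54% and 4.02%. The 2 markers without overlap were Gpnmb and Ms4a7 (limma, adjusted p = 0.201 for both). Gpnmb read 4.42 ± 2.16 FPKM in anti-miR-29a and 1.57 ± 0.217 FPKM in scrambled libraries. Ms4a7 read 0.971 ± 0.424 FPKM in anti-miR-29a libraries and was listed at 0 in 2 of the 4 scrambled libraries. Ms4a7, with a scrambled mean of 0.0967 FPKM, passed the filter of 0.5 FPKM only through its anti-miR-29a values. Its place in these counts therefore depends on the values compared. Itgax, the 1 marker below the filter, ran the other way, at 0.377 ± 0.172 FPKM in anti-miR-29a and 0.433 ± 0.140 FPKM in scrambled libraries. Homeostatic microglia markers (4 genes) summed to 44.9 to 60.3 FPKM in anti-miR-29a and 45.6 to 74.2 FPKM in scrambled libraries. Markers of astrocytes, oligodendrocytes, oligodendrocyte precursors, endothelial cells and meningeal fibroblasts summed to 182.4 to 230.0, 808.9 to 1084, 5.53 to 7.49, 33.0 to 39.4 and 12.2 to 26.7 FPKM in anti-miR-29a libraries, against 181.4 to 217.4, 723.9 to 1495, 5.45 to 7.82, 28.4 to 38.0 and 7.98 to 18.0 FPKM in scrambled libraries. The highest sums of oligodendrocyte (1495 FPKM), homeostatic microglia (74.2 FPKM) and oligodendrocyte precursor markers (7.82 FPKM) were all in scrambled replicate 1. That library was the lowest for 6 of the 10 genes. The part of these cells in the differences of the 10 genes was not tested.

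The wider pathway was then read from gene lists that leave out the 10 genes. Like the 10 genes, the lists were chosen with earlier results of these data known, so their shares describe and do not test. No member of any of these lists passed by limma over all tested rows, so their values are given as counts and medians beside the background above. Among 20 tested p53 targets of arrest and repair, 14 had positive differences, with a median of 0.15, and 0 were without overlap. At an unadjusted p under 0.05 limma counted 4 higher and 1 lower, that is 20% higher. Plk2, a stress-induced polo-like kinase of synapses, read 57.1 ± 2.70 FPKM in anti-miR-29a and 48.8 ± 4.86 FPKM in scrambled libraries (limma, adjusted p = 0.304), and Ephx1, an epoxide hydrolase, 15.1 ± 2.66 and 11.1 ± 1.76 FPKM (limma, adjusted p = 0.329). Sesn3, the third sestrin, ran the other way at 8.26 ± 0.571 FPKM in anti-miR-29a and 11.6 ± 2.02 FPKM in scrambled libraries, or -0.47 on the log2 scale (limma, adjusted p = 0.239). Among p53 targets of cell death 7 were tested, all 7 with positive differences, a median of 0.29 and 0 without overlap. The median gene was Fas, at 0.665 FPKM over all libraries, near the filter of 0.5 FPKM. With the length and GC trend removed the median was 0.19. By limma 2 of the 7 had an unadjusted p under 0.05. These were Siva1, at 5.81 ± 1.79 and 3.98 ± 0.955 FPKM, and Bax, the pore-forming killer protein of mitochondria, at 30.9 ± 4.18 and 26.6 ± 1.07 FPKM, with anti-miR-29a given first (limma, adjusted p = 0.447 and 0.451).

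Regulators of p53 did not lean one way. Of 14 tested, 8 had positive differences and the median was 0.017. Hipk2, a kinase that phosphorylates p53, read 4.26 ± 0.831 FPKM in anti-miR-29a and 6.56 ± 0.902 FPKM in scrambled libraries, with no overlap and a log2 difference of -0.62 (limma, adjusted p = 0.234). Ppm1d, the phosphatase that switches p53 off and a reported miR-29 target, read 4.66 ± 0.951 and 3.72 ± 0.309 FPKM (limma, adjusted p = 0.502). Ep300, a coactivator of p53, read 8.37 ± 0.573 and 9.29 ± 0.389 FPKM (limma, adjusted p = 0.518). The other reported targets upstream of p53 were level, Cdc42 at 112.9 ± 7.46 FPKM in anti-miR-29a and 115.2 ± 4.33 FPKM in scrambled libraries (limma, adjusted p = 0.871) and Pik3r1 at 23.3 ± 2.03 and 23.3 ± 2.07 FPKM (limma, adjusted p = 0.999).

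Partners of the 10 gene products differed little. Of 7 tested Gadd45 partners 4 had positive differences (median 0.072), the first by p being Tdg, the thymine glycosylase that completes DNA demethylation, at 6.01 ± 1.12 FPKM in anti-miR-29a and 4.75 ± 0.564 FPKM in scrambled libraries (limma, adjusted p = 0.457), followed by Pcna at 23.8 ± 2.04 and 21.4 ± 2.01 FPKM. Tdg held 3 matches to the miR-29 seed in its 3' UTR, 1 of them an 8-base site. Among Cdkn1a partners and other inhibitors of cyclin-dependent kinases, 11 of 14 were positive with a median of 0.068, and Ccne1, cyclin E1, read 7.90 ± 1.38 and 6.39 ± 0.144 FPKM (limma, adjusted p = 0.434). The BTG family and the CCR4-NOT deadenylase had 4 of 10 rows positive (median -0.081), and its subunit Cnot8 read 20.5 ± 1.28 and 18.1 ± 0.764 FPKM without overlap (limma, adjusted p = 0.387). For sestrin partners 7 of 16 were positive (median -0.013), and Gatsl2, an older symbol of Castor2, a relative of the arginine sensor of mTORC1, read 14.0 ± 0.625 and 16.5 ± 0.469 FPKM without overlap and with scrambled higher (limma, adjusted p = 0.243). The FoxO factors, which can drive Gadd45a and sestrin genes, had a median of 0.089 with 3 of 4 positive, Foxo6 at 4.55 ± 0.610 and 4.10 ± 0.673 FPKM.

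Lists for the other inputs to these genes gave larger medians in some cases. Activity-regulated genes had 22 of 24 positive differences and a median of 0.70, with 16 of 24 higher at an unadjusted p under 0.05 by limma (66.7%) and 13 without overlap. The 2 with negative differences were Npas4 (-0.035) and Homer1 (-0.16). Maff, at 0.954 ± 0.580 FPKM in anti-miR-29a and 0.395 ± 0.320 FPKM in scrambled libraries, passed the filter of 0.5 FPKM only through its anti-miR-29a values. Its place among the 22 positive differences and in the median therefore depends on the values compared. With the filter at 5 FPKM, which drops Maff, the median of the list was 0.69. Sik1 read 5.39 ± 1.54 FPKM in anti-miR-29a and 1.88 ± 0.359 FPKM in scrambled libraries (limma, adjusted p = 0.0821, within 0.0438 to 0.286 over its alternatives), Fosl2 6.93 ± 1.05 and 3.60 ± 0.554 FPKM (limma, adjusted p = 0.095), and Ier5 23.9 ± 1.32 and 19.1 ± 1.61 FPKM (limma, adjusted p = 0.212). This list's median by library was 0.56 to 0.93 in anti-miR-29a libraries and -0.38 to 0.20 in scrambled libraries, with scrambled replicate 1 lowest and anti-miR-29a replicate 2 highest, the same libraries as for Gadd45b, Gadd45g and Btg2. Without scrambled replicate 1 its median was 0.49. The part of activity-regulated expression in the values of these 3 genes was not tested. Glucocorticoid response genes were positive in 10 of 10 (median 0.27), 3 of them at an unadjusted p under 0.05: Errfi1 at 8.02 ± 0.610 and 6.45 ± 0.345 FPKM, Tsc22d3 at 22.6 ± 3.26 and 18.1 ± 1.21 FPKM, and Mt1 at 417.5 ± 64.1 and 325.6 ± 43.3 FPKM (limma, adjusted p = 0.264, 0.312 and 0.313). Errfi1 and Tsc22d3 were the 2 of the 10 without overlap. The integrated stress response had 8 of 9 positive (median 0.15) and 0 at an unadjusted p under 0.05, with Atf4, its central factor and an activator of Sesn2, at 76.5 ± 5.21 and 68.9 ± 6.94 FPKM (limma, adjusted p = 0.51).

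**Figure D4:**
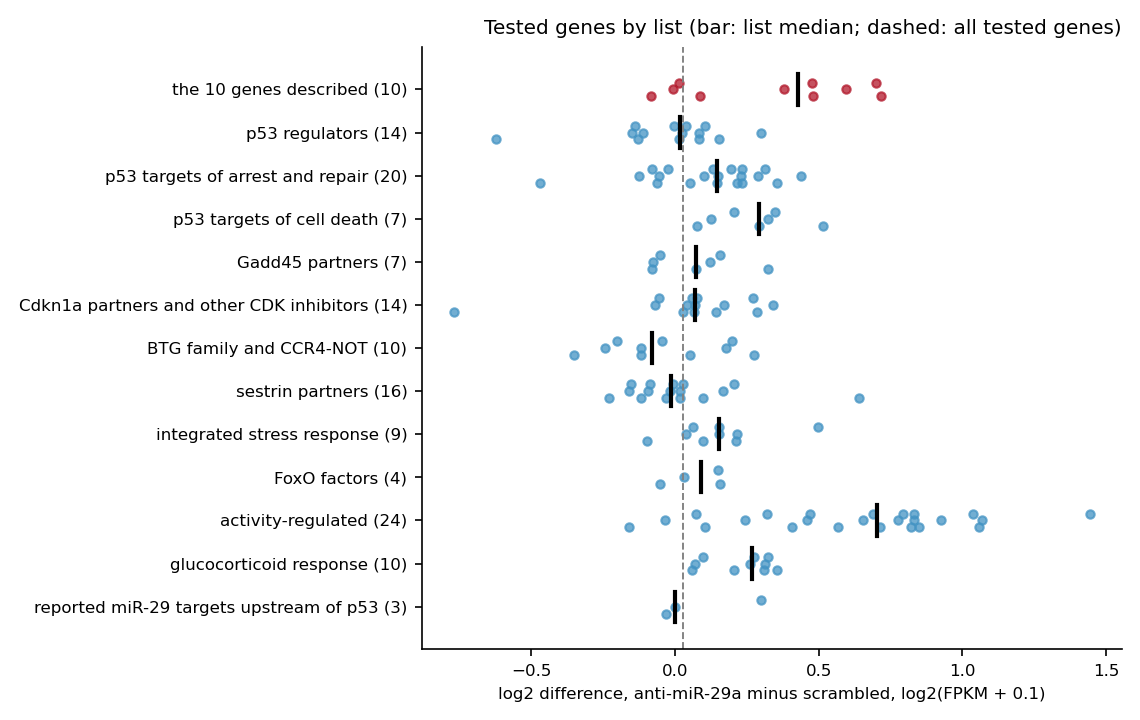
Log2 difference (anti-miR-29a minus scrambled) of every tested gene of each list, with the number tested in brackets, the list median as a black bar and the median of all tested rows (0.026) as a dashed line. The 10 genes described split into 6 at 0.38 and above and 4 near 0, p53 regulators centre on 0.017, and activity-regulated genes on 0.70.

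Promoter sequence was read for the 10 genes, which had 12 annotated windows in RefSeq (GRCm38.p6) from 250 bases before to 50 after a start site, because p53-type and activity-type inputs have recognisable elements. Each window was searched on both strands for the p53 half-site, the serum response factor CArG box, the CRE TGACGTCA and the AP-1 site TGANTCA. Of 32851 promoter windows 8.36% held a p53 half-site, 1.63% a CArG box, 1.79% a CRE and 7.81% an AP-1 site. The more upstream window of Cdkn1a held 2 p53 half-sites, 73 and 51 bases before its start, while the other, with upstream part chr17:29093519-29093768, held none. The windows of Gadd45a, Mdm2, Ccng1 and Trp53 held 1 each. Of the Sesn1 windows, the one with upstream part chr10:41887189-41887438 held 1 and the other none. Btg2 held a CRE 166 bases before the start. The windows of Gadd45b, Gadd45g and Sesn2 held none of the 4, and no window held a CArG box or an AP-1 site. Among genes with higher means, Cdkn1a and Gadd45a thus held a half-site, and Gadd45b, Gadd45g, Sesn2 and Btg2 did not. The genes near 0 (Trp53, Mdm2, Ccng1 and, in 1 of its windows, Sesn1) each held a half-site. Sequence outside the windows was not searched. The 250 bases before the start are printed, 5' to 3' in the direction of transcription, for Cdkn1a and Gadd45a, the 2 genes with higher means that held p53 half-sites, and for Btg2. Capitals mark p53 half-sites in Cdkn1a and Gadd45a and the CRE in Btg2.
Cdkn1a, chr17:29090729-29090978, plus strand: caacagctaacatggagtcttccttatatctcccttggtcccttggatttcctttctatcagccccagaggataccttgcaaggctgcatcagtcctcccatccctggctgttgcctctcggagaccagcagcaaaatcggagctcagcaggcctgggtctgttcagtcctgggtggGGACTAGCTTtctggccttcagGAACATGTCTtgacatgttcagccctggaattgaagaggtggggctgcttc
Gadd45a, chr6:67037408-67037657, minus strand: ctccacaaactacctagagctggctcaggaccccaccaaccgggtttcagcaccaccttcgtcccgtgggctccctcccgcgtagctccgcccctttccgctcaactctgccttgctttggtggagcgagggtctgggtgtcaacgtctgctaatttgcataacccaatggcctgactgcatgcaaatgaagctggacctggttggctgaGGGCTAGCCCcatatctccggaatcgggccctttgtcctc
Btg2, chr1:134079156-134079405, minus strand: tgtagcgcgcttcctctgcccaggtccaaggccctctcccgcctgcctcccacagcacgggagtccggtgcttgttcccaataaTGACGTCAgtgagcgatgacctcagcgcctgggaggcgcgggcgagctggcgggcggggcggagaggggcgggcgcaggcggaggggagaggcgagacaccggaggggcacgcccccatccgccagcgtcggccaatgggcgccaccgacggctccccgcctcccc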

How the data were processed

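RNA of 8 libraries was sequenced. The table the authors deposited gives FPKM. The tools named per the submitters' processing notes are CASAVA 1.8.2, Bowtie and Cuffnorm, and the build is mm10. Annotation, filters and scaling are not given in the sources used. Per the labels' protocols, the TruSeq v2 kit was used, which does not mark strand.

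Rows with a mean of at least 0.5 FPKM (13912) were fitted as log2(FPKM + 0.1) in limma 3.58.1 (R 4.3.3), using the group alone and a variance trend. This step was run on simulated data as a check of the code, and its recovery of differences as small as those found here is not given. Folds of low genes are understated on this scale. Single genes also had an exact permutation test over 70 relabellings. Named genes outside the set are up to 3 of smallest p per list, plus the 3 nearest profiles per Gadd45 gene. Slc17a7, Tbr1, Neurod6, Gad1, Snap25, Gpnmb, Ms4a7, Itgax, Fas, Npas4, Homer1, Maff, Mki67 and Top2a were chosen after their values were seen. The 10 genes and all lists were chosen with earlier results of these data known. Positions, 3' UTRs and transcript lengths came from GENCODE M21, in which 99.2% of tested rows had a transcript. The alternatives were 2 other pseudocounts, 2 other filters, 2 scalings, robust empirical Bayes, a replicate block and each library left out. Removing a length and GC trend (mgcv 1.9.3) and leaving out rows without a transcript of 200 nt were added after seeing the data.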

Additional observations from a re-analysis of the deposited data

Results flagged for a closer look

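The summed level of 6 dividing-cell markers was 1.87 FPKM in scrambled replicate 3, against 0.781 to 0.835 FPKM in the other 3 scrambled libraries, far enough from them to be singled out by Dixon's test. It was 1 of 40 groups of 4 values examined, of which chance singles out about 1 in 20. All 6 markers lay below the expression filter.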

How the results depend on the processing

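None of the 10 genes was called under any of the 18 alternatives, and the differences of Gadd45a, Gadd45b, Gadd45g, Cdkn1a, Btg2, Sesn2, Trp53 and Mdm2 kept their sign in each alternative that tested them. Genes called over all rows numbered 2, against 1 with no filter, 1 with a mean of at least 5 FPKM, 10 with robust empirical Bayes, 0 without rows lacking a transcript of 200 nt, and 1 to 3 with 1 library left out. With the replicate number as a block 0 were called. After each gene's group mean was subtracted, same-numbered libraries had correlations of -0.11 to 0.014. Of the 4 scrambled libraries, 0 correlated best with the anti-miR-29a library of the same number. Whether the numbers pair the libraries was not tested. Genes of the set without overlap numbered 4, against 2 with the filter at 5 FPKM, which drops Gadd45a and Sesn2, 1 with the length and GC trend removed, and 4 to 6 with 1 library left out. Without scrambled replicate 3, Btg2 and Gadd45g joined them. Rows higher without overlap numbered 559 of 13912 in all, against 437 of 8301 with that filter, 342 of 13758 with the trend removed, 764 to 1055 with 1 library left out and 946 without scrambled replicate 3. Under quantile normalization 3 did not overlap, as Sesn2 dropped out. Those at an unadjusted p under 0.05 numbered 5, against 3 with the filter at 5 FPKM, 4 with the trend removed, when Gadd45g dropped out, and 4 to 6 with 1 library left out. The median of the set was 0.28 with that filter, 0.33 with the trend removed, and 0.25 (without scrambled replicate 1) to 0.45 with 1 library left out. With the trend removed, medians were 0.098 for p53 targets of arrest and repair, -0.019 for the BTG list, 0.048 for the integrated stress response and 0.17 for glucocorticoid response genes. With the filter at 5 FPKM they were 0.0032 for the BTG list and -0.051 for FoxO factors. The integrated stress response median was 0.063 (without anti-miR-29a replicate 2) to 0.18 with 1 library left out. Ccng1 changed sign under quantile normalization (-0.022) and median centring (-0.015), as did Pik3r1 (-0.036 and -0.029). With 1 library left out the log2 difference was -0.023 to 0.060 for Ccng1, -0.064 to 0.039 for Sesn1, -0.068 to 0.0097 for Cdc42, -0.066 to 0.053 for Pik3r1 and -0.19 to 0.086 for Foxo3. The causes were not tested. Without read counts, counting error cannot be separated from other spread.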
